A study of Mus musculus with 6 samples.

Results

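The genes described here belong to the families that steer growing axons: the semaphorins with their plexin and neuropilin receptors, the Slits with the Robo receptors, the ephrins with the Eph receptors, and the netrins with the Unc5 receptors. They were chosen by gene symbol. Of 18193 genes with a single symbol on the array, 70 matched. One of them, Plxna4os1, is by its symbol an antisense RNA of Plxna4 and not a family member, which leaves 69. Their transcripts were measured with Affymetrix MOE430v2.0 arrays in epididymal white fat of male mice aged 10 weeks, on a C57BL6;129Sv strain background. One group of 3 mice was Pparg ldi/+, with a single copy of the allele ldi, in a study of lipodystrophic mice, and the other group was 3 litter-matched wild-type (WT) mice. Each array held the RNA of 1 mouse. The sources used here do not give what the ldi allele changes in Pparg.

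Guidance cues are secreted or membrane-bound ligands that attract or repel a cell's leading edge through receptors acting on the actin cytoskeleton. Semaphorins bind plexins, the secreted class 3 semaphorins with a neuropilin as co-receptor. Slits bind Robos, ephrins bind Eph receptor tyrosine kinases, and netrins such as Ntn1 bind Dcc, neogenin and Unc5 receptors. Outside the nervous system several of these genes belong to other cells: Robo4, Plxnd1, Ephb4, Efnb2, Unc5b and the neuropilins are used by blood vessels, and Sema4a, Sema4d, Sema7a and Plxnc1 by immune cells. Fat holds adipocytes, vessels, stromal cells, macrophages and nerve fibres, so a signal from the whole pad can come from any of them.

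The 6 arrays had deposited medians of 59.2 to 69.4 and were scaled to a common trimmed mean, so values below are scaled signals. A log2 difference is Pparg ldi/+ minus WT, taken after adding 32 to each signal, and it is too small for dim genes. Rose and fell mean an adjusted p below 0.05 by limma over 11201 genes. Pparg itself had 1732, 1709 and 1901 in Pparg ldi/+ fat, against 4378, 4440 and 4998 in WT fat. It fell by 1.35 on the log2 scale (SE 0.084, limma adjusted p = 1.04e-05), and the groups did not overlap. Whether its probes lie inside the altered stretch was not analysed here.

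Marker lists of the cells that the pad could hold differed between the groups. Of 9 adipocyte markers tested, 0 rose and 9 fell, and their summed signal was 55180 to 62220 in Pparg ldi/+ fat and 144927 to 162453 in WT fat. Macrophage markers rose in 14 of 14, with sums of 102233 to 104867 in Pparg ldi/+ fat and 41124 to 52377 in WT fat. The adipocyte and macrophage sums did not overlap between the groups. Lymphocyte markers rose in 3 of 4, with sums of 2686 to 3338 in Pparg ldi/+ fat and 812 to 1271 in WT fat. Among 16 endothelial markers, 11 fell and 1 rose, and the sums were 16465 to 19964 in Pparg ldi/+ fat and 29391 to 32218 in WT fat. Mesothelial markers, of the serosal surface, fell in 7 of 10, with sums of 7577 to 8326 in Pparg ldi/+ fat and 12644 to 15844 in WT fat. Endothelial and mesothelial sums were thus lower, and macrophage and lymphocyte sums higher, in each Pparg ldi/+ array than in any WT array. Schwann cell and nerve markers rose in 3 of 7, led by S100b, and the sums were 16899 to 17769 in Pparg ldi/+ fat and 12704 to 14434 in WT fat. Of the neuronal genes Tubb3, Th, Ncam1, Nefl, Nefm, Uchl1 and Prph, none (0) was bright enough to be tested. Mural and smooth muscle markers rose in 2 and fell in 2 of 8, with sums of 23557 to 25591 in Pparg ldi/+ fat and 27650 to 30125 in WT fat. Stromal progenitor markers rose in 2 and fell in 2 of 9, and their sums overlapped, at 93403 to 94883 in Pparg ldi/+ fat and 91248 to 96166 in WT fat.

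The Pparg ldi/+ arrays were not alike in one respect. Markers of the epididymal epithelium summed to 23974 in array 1, 32844 in array 2 and 1023 in array 3, against 941 to 1620 in WT fat. Epididymal transcripts were thus high in arrays 1 and 2 only. Of 7 such markers tested, 4 rose and 3 did not pass. Counts and differences were therefore also computed from array 3 of Pparg ldi/+ against the WT arrays. The part of these cell types in the results was not tested. In tissue RNA, fewer cells of a type and less RNA per cell cannot be told apart.

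**Figure D1:**
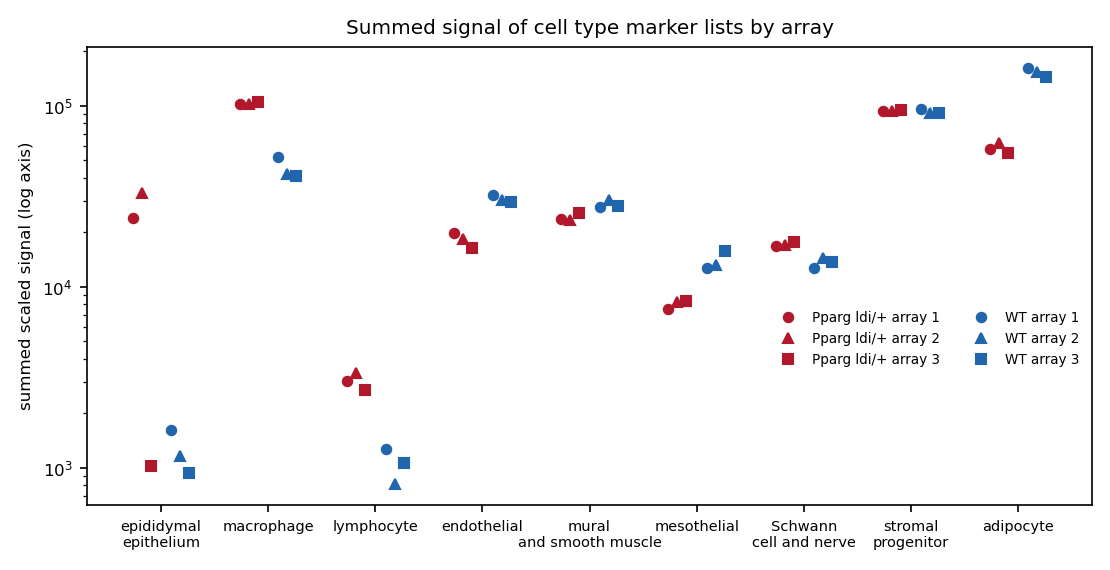
Summed scaled signal (log axis) of the markers of 9 cell types on each array, Pparg ldi/+ in red and WT in blue, with a symbol for each array number. The epididymal sum of Pparg ldi/+ array 3 lay within the WT range and those of arrays 1 and 2 far above it, while macrophage sums were above and endothelial and adipocyte sums below all WT arrays in all 3 Pparg ldi/+ arrays.

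Falls outnumbered rises among the axon guidance genes. Of the 69 family members, 45 were bright enough to be tested and 24 were not. Robo1 is set apart: it was put forward because its difference was already known, so its values are described without a test. Of the other 44, 13 fell, 5 rose and 26 did not pass. In all, 29.5% fell, beside 16.4% of all genes tested, and 11.4% rose, beside 16.3% of all genes tested. Together 40.9% were called, beside 32.7% of all genes tested. The median log2 difference of the 44 was -0.26, against -0.00 over all genes, and 32 of the 44 were negative. The arrays of the 2 groups did not overlap in 25 of the 44, or 56.8%, beside 47.6% of all genes. Among the 18 members called, none (0) overlapped, but the test on the same arrays had picked them, so this adds no support. Only those that passed the filter are counted, so these are not counts over all members. Sema3a and Robo1 passed with a WT mean below the filter.

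With Pparg ldi/+ array 3 alone, 5 of 46 members fell and 2 rose, where 878 of 11155 genes fell and 733 rose, and 11 of the 18 members lost their call. A fit of 1 array against 3 assumes that the lone array varies like the WT arrays and calls fewer genes. Leaving out single arrays moved the count of rises most: it was 2 without Pparg ldi/+ array 1, 3 without Pparg ldi/+ array 3 and 3 without WT array 2. The count of falls was 10 to 14 when any single array was left out. By role, 9 of 27 ligand genes fell and 2 rose, or 33.3% and 7.41%. Of 17 receptor genes 4 fell and 3 rose, or 23.5% and 17.6%. Over all genes tested 16.4% fell and 16.3% rose. Whether ligands and receptors differ was not tested. The lowest and highest differences were those of Robo4 and Sema4d.

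**Figure D2:**
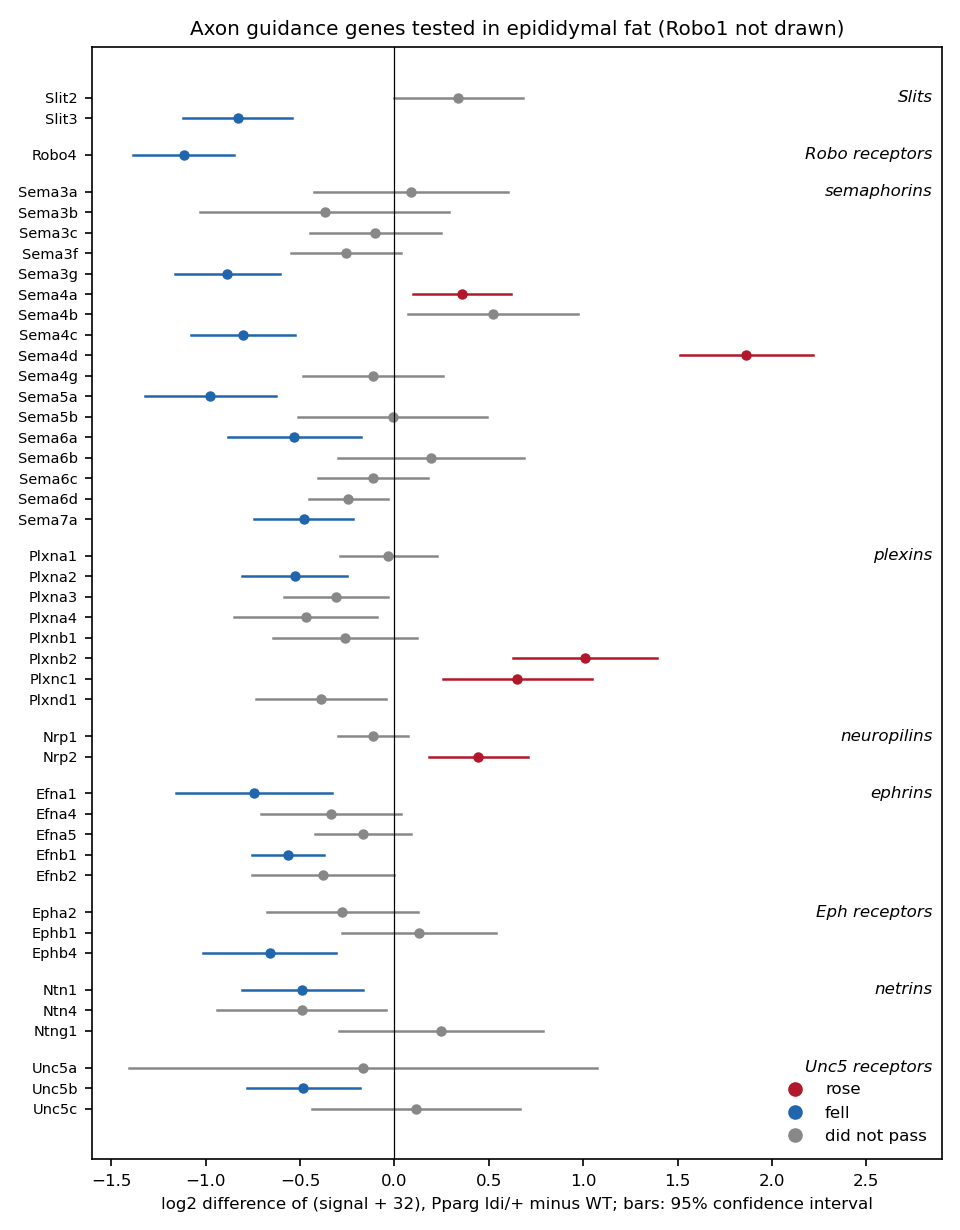
Log2 difference of (signal + 32), Pparg ldi/+ minus WT, with its 95% confidence interval, for the 44 members tested apart from Robo1, ordered by family and coloured by call. The 13 falls lie across most families, from Robo4 at -1.12 to Sema7a at -0.48, and the 5 rises are Sema4d, Plxnb2, Plxnc1, Nrp2 and Sema4a.

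Within the Slit and Robo families, Robo1 and Robo4 stood at opposite ends. Robo1 is a receptor of Slits in neurons and many other cells. Its brightest probe set had 4572, 3009 and 4676 in Pparg ldi/+ fat, against 116, 156 and 130 in WT fat. All 3 Pparg ldi/+ arrays were far above all WT arrays. The epididymal sums differed among these 3 arrays, and their part in the Robo1 values was not tested. The log2 difference was 4.61, or 24.4-fold on the scale with 32 added. The WT mean of 134 was below 145, the level under which genes were not tested. The size of the fold therefore depends on the offset, and with 100 added the difference was 4.14. Detection calls were not used here, so no statement is made on whether Robo1 was present in WT fat.

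The 3 probe sets of Robo1 did not read alike. A second one had 337, 280 and 282 in Pparg ldi/+ fat, against 17.2, 24.3 and 97.6 in WT fat, a log2 difference of 2.22 and again with no overlap. The last one had 7.70, 9.65 and 86.2 in Pparg ldi/+ fat, against 18.9, 88.8 and 39.7 in WT fat. There the groups overlapped, and the log2 difference was -0.39. Both of these probe sets had a mean below the level needed for testing. The mean over the 3 gave a log2 difference of 2.15. Which transcripts or parts of the gene each probe set reads was not analysed here.

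**Figure D3:**
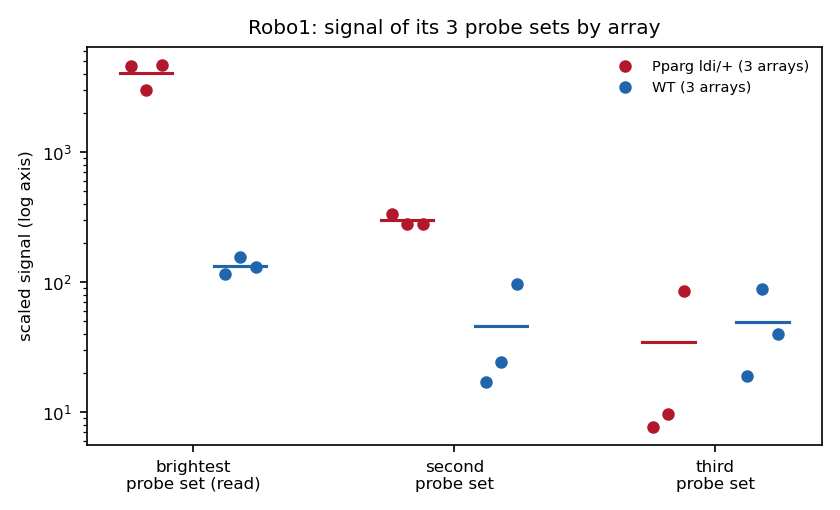
Scaled signal (log axis) of each of the 3 Robo1 probe sets, with a dot per array and a line at the mean, Pparg ldi/+ in red left of WT in blue. The brightest and the second probe set separate the groups, at means of 4086 in Pparg ldi/+ against 134 in WT and 299.6 against 46.4, while the last overlaps at means of 34.5 and 49.1.

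Robo4, the Robo receptor of endothelial cells, went the other way. It had 632, 558 and 628 in Pparg ldi/+ fat, against 1566, 1299 and 1207 in WT fat. Every Pparg ldi/+ array was below every WT array. It fell 2.17-fold (log2 -1.12, SE 0.117, limma adjusted p = 0.000172), and the call held in all 18 alternatives, with array 3 alone at -1.06. The endothelial markers beside it had a median log2 difference of -0.84 and ran from -1.48 to 0.58, so Robo4 lay inside their wide range. Their part in the Robo4 value was not tested. Robo2 and Robo3 were too dim to be tested, with signals of at most 142 on any array.

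Of the ligands, Slit3 fell and Slit2 did not pass. Slit3, a secreted Slit, had 691, 713 and 700 in Pparg ldi/+ fat, against 1130, 1171 and 1554 in WT fat. Its Pparg ldi/+ arrays were close together and all below the WT arrays, a 1.78-fold fall (log2 -0.83, SE 0.127, limma adjusted p = 0.00131) that held in all 18 alternatives. Slit2 had 417, 393 and 506 in Pparg ldi/+ fat, against 313, 311 and 398 in WT fat, and the groups overlapped. Its log2 difference was 0.34 (95% confidence interval -0.00 to 0.68, limma adjusted p = 0.12). Slit1 was dim on all arrays, at no more than 43.6.

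The promoters of the 3 Slit and Robo genes with the largest differences are shown because Robo1 was higher, and Robo4 and Slit3 lower, in Pparg ldi/+ fat. Each window runs from 250 bases before to 50 bases after the annotated start in RefSeq, build GRCm38.p6, all on the plus strand: Robo1 at chr16:72662899-72663198, Robo4 at chr9:37401722-37402021 and Slit3 at chr11:35121206-35121505. Capitals mark the nuclear receptor half-site AGGTCA, the unit from which sites of PPARG with RXR are built, searched on both strands.
Robo1 promoter: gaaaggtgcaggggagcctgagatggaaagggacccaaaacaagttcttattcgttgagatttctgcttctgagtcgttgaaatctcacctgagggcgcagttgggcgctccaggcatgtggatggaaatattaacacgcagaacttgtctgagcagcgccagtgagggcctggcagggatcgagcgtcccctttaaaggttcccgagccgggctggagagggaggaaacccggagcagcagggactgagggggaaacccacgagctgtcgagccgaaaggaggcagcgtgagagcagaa
Robo4 promoter: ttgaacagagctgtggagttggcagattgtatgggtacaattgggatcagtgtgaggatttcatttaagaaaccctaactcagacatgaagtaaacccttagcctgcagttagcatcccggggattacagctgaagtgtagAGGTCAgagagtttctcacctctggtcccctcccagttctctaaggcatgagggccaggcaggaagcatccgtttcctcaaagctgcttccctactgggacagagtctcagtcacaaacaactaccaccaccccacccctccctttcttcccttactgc
Slit3 promoter: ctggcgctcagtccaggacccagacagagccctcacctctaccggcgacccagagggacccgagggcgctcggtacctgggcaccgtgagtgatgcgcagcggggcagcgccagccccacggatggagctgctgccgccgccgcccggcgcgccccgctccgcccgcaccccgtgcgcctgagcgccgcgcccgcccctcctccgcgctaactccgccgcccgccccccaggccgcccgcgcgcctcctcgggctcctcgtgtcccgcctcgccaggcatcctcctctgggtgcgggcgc
Robo4 held the half-site once, 109 bases before the start, and Robo1 and Slit3 held none (0). CpG pairs numbered 15 in the Robo1 window, 2 in that of Robo4 and 41 in that of Slit3, where the median of all 32851 windows was 7. Among the 70 matched symbols, 60 had an entry, with 76 windows. Of these windows 14.5% held the half-site, beside 16.3% of all windows. The ETS motif AGGAAGT, searched on both strands as well, was in 5.26% of the members' windows and 9.35% of all. The direct repeat of that half-site with 1 base between the copies, a form of the site that PPARG binds and one that also counts under the half-site, was in 0 of the 76 windows and in 0.0396% of all. The data do not measure binding, and a match or its absence in such a window is a description only.

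Semaphorins went both ways, with falls in 5 and rises in 2 of 17 tested. These were 29.4% and 11.8%, beside 16.4% and 16.3% of all genes tested. Sema4d, the transmembrane semaphorin of T cells also called CD100, had 1529, 1811 and 1257 in Pparg ldi/+ fat, against 438, 331 and 418 in WT fat. The lowest Pparg ldi/+ array was far above the highest WT array. It rose 3.64-fold (log2 1.86, SE 0.154, limma adjusted p = 4.66e-05), with 1.60 in array 3 alone. A dimmer probe set of Sema4d had 279, 305 and 323 in Pparg ldi/+ fat and 18.2, 31.8 and 25.5 in WT fat, and the dimmest was at 17.4 or less on every array. The macrophage and lymphocyte lists, with 14 and 4 genes tested, were higher on the same arrays. Their log2 differences had medians of 1.53 each and ran from 0.37 to 2.57 and from 0.22 to 2.20. The part of these cells in the Sema4d rise was not tested.

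Sema4a, a class 4 semaphorin of immune cells, was the smaller of the 2 rises. It had 1045, 953 and 850 in Pparg ldi/+ fat, against 701, 687 and 816 in WT fat. The groups were apart by little (log2 0.36, SE 0.114, limma adjusted p = 0.0416). The call ended without Pparg ldi/+ array 1 (0.29) or array 2 (0.35), without WT array 1 (0.32) or array 2 (0.31), and with array 3 alone (0.21). It also ended with the replicate number as a block, with no intensity trend and with dim genes kept in the test, at limma adjusted p of 0.0893, 0.0548 and 0.0605. Sema4b, of the same class, was at 0.52 and did not pass (limma adjusted p = 0.0763), and passed without WT array 3 (0.68). Sema4g was at -0.11 with an interval of -0.48 to 0.26.

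Sema4c, a transmembrane semaphorin that binds plexin B2, and Sema5a both fell. Sema4c had 465, 526 and 436 in Pparg ldi/+ fat, against 771, 960 and 833 in WT fat, a 1.74-fold fall (log2 -0.80, SE 0.121, limma adjusted p = 0.00122). Sema5a, a transmembrane semaphorin with thrombospondin repeats, fell 1.97-fold, to 237, 225 and 278 in Pparg ldi/+ fat against 574, 428 and 553 in WT fat (limma adjusted p = 0.00144). The other 3 probe sets of Sema5a were lower as well, at -0.65 to -1.50. With array 3 alone Sema5a was at -0.82 and no longer passed, while Sema4c passed at -0.92.

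Among the secreted class 3 semaphorins only Sema3g passed, of 5 tested. It had 420, 527 and 491 in Pparg ldi/+ fat, against 859, 856 and 1019 in WT fat, with every Pparg ldi/+ array lower (log2 -0.88, SE 0.122, limma adjusted p = 0.000758), and held in all 18 alternatives. Sema3c did not pass. It had 3151, 2393 and 3607 in Pparg ldi/+ fat, against 3216, 3683 and 2844 in WT fat, and these overlapped (log2 -0.10, interval -0.45 to 0.25). Sema3f, a ligand of neuropilin 2, was at -0.26 with the groups apart and did not pass in the probe set read, but passed with the mean of its 3 probe sets (-0.43). Its other probe sets were at -0.59 and -0.45, each with the groups apart. The one at -0.59 was the brightest and was left out as an x_at set. Sema3a and Sema3b, which also did not pass, were at 0.09 and -0.37.

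Sema6a and Sema7a fell by smaller amounts. Sema6a, a transmembrane ligand of plexins A2 and A4, had 275, 197 and 230 in Pparg ldi/+ fat, against 327, 353 and 371 in WT fat (log2 -0.53, SE 0.155, limma adjusted p = 0.0292). Its call ended without Pparg ldi/+ array 2 (-0.43) or array 3 (-0.53), without WT array 2 (-0.53) or array 3 (-0.49), in unscaled values (-0.42) and with Pparg ldi/+ array 3 alone (-0.54). It also ended with the replicate number as a block and with dim genes kept in the test, at limma adjusted p of 0.0638 and 0.0618. Sema7a, which is anchored to the membrane by a lipid and binds plexin C1 and integrins, had 424, 470 and 437 in Pparg ldi/+ fat, against 651, 686 and 564 in WT fat (log2 -0.48, SE 0.115, limma adjusted p = 0.0121). Every Pparg ldi/+ array was below every WT array for both genes. The Sema7a call ended with the mean of all its probe sets (-0.50) and with array 3 alone (-0.50). The remaining members of classes 5 and 6 did not pass: Sema5b was at -0.01, Sema6b at 0.19, Sema6c at -0.11 and Sema6d at -0.24. With weights on the arrays Sema6d passed (-0.28, limma adjusted p = 0.047).

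In the plexin family 2 receptors rose and 1 fell, of 8 tested. That is 25% and 12.5%, beside 16.3% and 16.4% of all genes tested. Plxnb2, the receptor of class 4 semaphorins including Sema4c, had 1234, 1410 and 1401 in Pparg ldi/+ fat, against 846, 505 and 652 in WT fat. All Pparg ldi/+ arrays were higher, a 2.01-fold rise (log2 1.01, SE 0.167, limma adjusted p = 0.00199) that held in all 18 alternatives. Plxnc1, the receptor of Sema7a, had 430, 288 and 379 in Pparg ldi/+ fat, against 244, 213 and 201 in WT fat (log2 0.65, SE 0.173, limma adjusted p = 0.0197). The call of Plxnc1 ended without Pparg ldi/+ array 1 (0.53) or array 3 (0.62) without WT array 2 (0.63) or array 3 (0.60), and with array 3 of Pparg ldi/+ alone (0.71). Its second probe set, with no overlap, differed by 0.78. The macrophage marker sums were higher on the same 3 Pparg ldi/+ arrays, and their part in these rises was not tested.

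Of the 4 plexins of class A, 1 fell and 3 did not pass. Plxna2, a receptor of Sema6a and of class 3 semaphorins, had 465, 504 and 483 in Pparg ldi/+ fat, against 768, 778 and 606 in WT fat (log2 -0.53, SE 0.122, limma adjusted p = 0.0106), and with array 3 alone it no longer passed (-0.53). Plxna3 and Plxna4 were at -0.31 and -0.47 with the groups apart and adjusted p of 0.0805 and 0.0606 by limma. Both passed with no intensity trend, at limma adjusted p of 0.0424 and 0.0498. Plxna1 had 867, 736 and 941 in Pparg ldi/+ fat, against 869, 914 and 813 in WT fat, and overlapped (interval -0.29 to 0.22). Plxnb1, the high-affinity receptor of Sema4d, was at -0.26 and did not pass (interval -0.64 to 0.12). Plxnd1, the endothelial receptor of Sema3e, had 2198, 1818 and 1958 in Pparg ldi/+ fat, against 2611, 3248 and 2090 in WT fat. Its difference of -0.39 did not pass (limma adjusted p = 0.0823), but did without WT array 3 (-0.55).

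The neuropilins differed from each other in their call. Nrp2, co-receptor of Sema3f and of the lymphatic growth factor VEGF-C, had 1179, 1053 and 1255 in Pparg ldi/+ fat, against 889, 916 and 736 in WT fat (log2 0.44, SE 0.115, limma adjusted p = 0.0172). Of its other 3 probe sets, 2 had the groups apart, at 0.49 and 1.07, and the dimmest overlapped at 0.12. The call ended without Pparg ldi/+ array 1 (0.43) or array 3 (0.39) and with array 3 alone (0.56). Nrp1, co-receptor of Sema3a and of VEGF-A, had 5358, 5465 and 5129 in Pparg ldi/+ fat, against 6280, 5779 and 5248 in WT fat. It did not pass (log2 -0.11, interval -0.30 to 0.07). Whether the difference between Nrp1 and Nrp2 is itself beyond error was not tested.

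**Figure D4:**
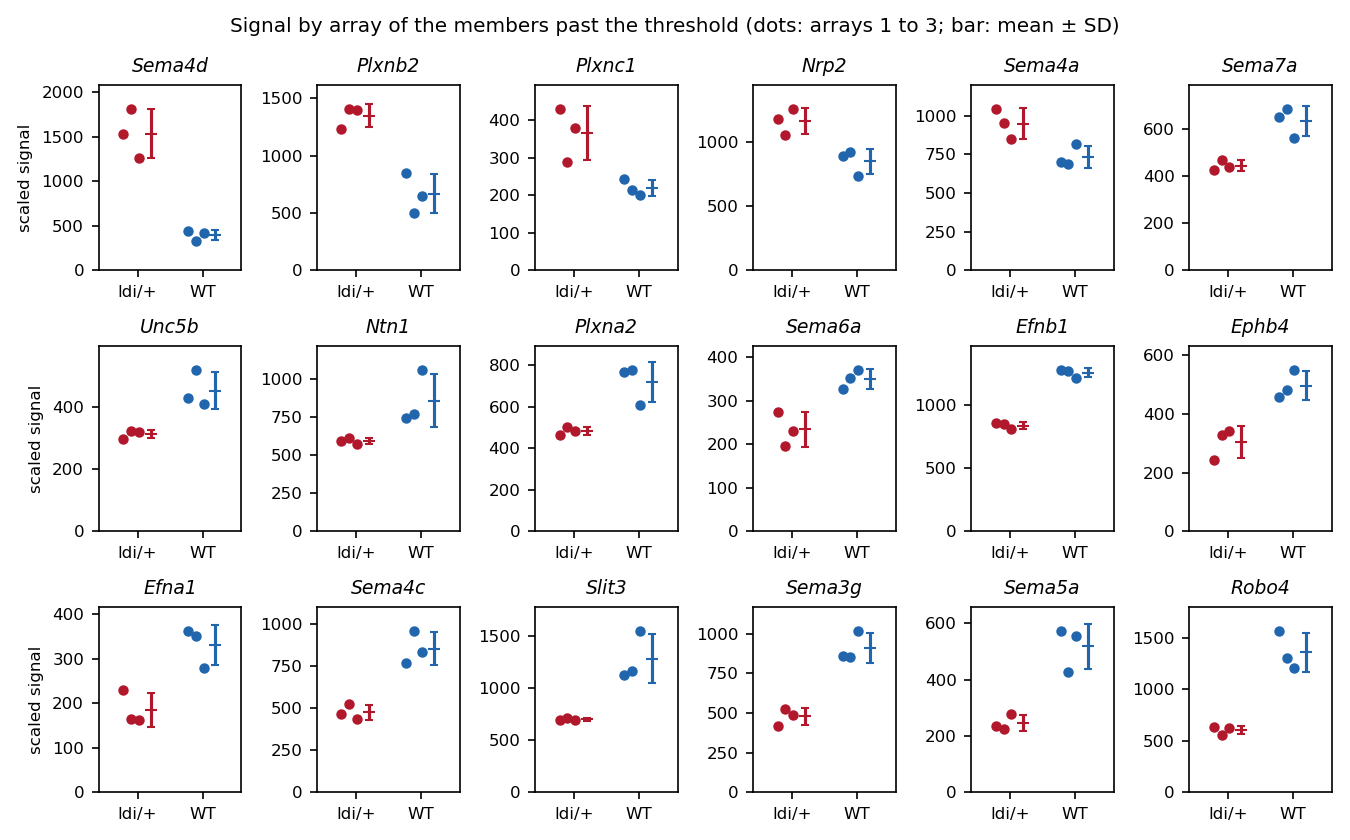
Scaled signal on each array of the 18 members past the threshold, each panel from 0, with Pparg ldi/+ in red left of WT in blue and the mean ± SD (n = 3) beside the dots, in order of log2 difference. The groups do not overlap in any panel, for genes that the test on the same arrays had picked. They lie farthest apart in Sema4d and Robo4.

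Ephrins, the membrane-bound ligands of Eph receptors, fell in 2 and rose in 0 of 5 tested. Over all genes tested 16.4% fell and 16.3% rose. Efnb1, whose protein spans the membrane, had 862, 851 and 809 in Pparg ldi/+ fat, against 1283, 1274 and 1217 in WT fat. The spread within each group was small beside the gap, a 1.48-fold fall (log2 -0.56, SE 0.083, limma adjusted p = 0.00111) that held in all 18 alternatives. Its other 2 probe sets differed by -0.65 and -0.95. Efna1, a lipid-anchored ephrin, had 229, 164 and 163 in Pparg ldi/+ fat, against 363, 350 and 279 in WT fat (log2 -0.74, SE 0.181, limma adjusted p = 0.0133). With array 3 alone it was at -0.89 and no longer passed. Efnb2, the ephrin of arterial endothelium, had 321, 246 and 235 in Pparg ldi/+ fat, against 355, 407 and 308 in WT fat. That probe set did not pass (log2 -0.38, limma adjusted p = 0.116), a second one had 193, 206 and 174 in Pparg ldi/+ fat and 385, 443 and 376 in WT fat, and the mean of its 4 probe sets passed at -0.72. Efna4 and Efna5 were at -0.34 and -0.17 and did not pass, but Efna4 passed with no intensity trend (limma adjusted p = 0.04).

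Only 3 of 13 Eph receptor genes were bright enough to be tested. Ephb4, the receptor of ephrin B2 on veins, had 243, 328 and 343 in Pparg ldi/+ fat, against 457, 482 and 551 in WT fat, with every Pparg ldi/+ array lower (log2 -0.66, SE 0.154, limma adjusted p = 0.0111). With array 3 alone it was at -0.49 and did not pass. The endothelial marker sums were also lower on all 3 Pparg ldi/+ arrays, and their part in the Ephb4 and Unc5b values was not tested. Epha2 was at -0.28 and Ephb1 at 0.13, and neither passed.

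Netrin 1 and its receptor Unc5b both fell. Ntn1, the secreted netrin, had 594, 614 and 574 in Pparg ldi/+ fat, against 742, 768 and 1057 in WT fat (log2 -0.49, SE 0.14, limma adjusted p = 0.0274). Unc5b, a netrin receptor of endothelium, had 296, 321 and 320 in Pparg ldi/+ fat, against 427, 518 and 408 in WT fat (log2 -0.48, SE 0.132, limma adjusted p = 0.0222). In both genes every Pparg ldi/+ array was below every WT array. Both calls were near the threshold. That of Ntn1 ended without Pparg ldi/+ array 1 (-0.49), array 2 (-0.51) or array 3 (-0.46), with the mean of its 2 probe sets (-0.34), in unscaled values (-0.41) and with array 3 alone (-0.53). That of Unc5b ended without Pparg ldi/+ array 1 (-0.45) or array 3 (-0.50), without WT array 2 (-0.39), in unscaled values (-0.39) and with Pparg ldi/+ array 3 alone (-0.45). Ntn4 was at -0.49 and did not pass, but passed without WT array 1 (-0.66). Ntng1 and Unc5c were at 0.25 and 0.11. Unc5a had the widest interval of the 44, with 81.3, 557 and 189 in Pparg ldi/+ fat, against 334, 141 and 299 in WT fat, and an interval of -1.41 to 1.07.

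Other probe sets of the called members mostly read the same way. Of the 18, 12 had further probe sets, 25 in all. In 14 of these the mean signal was high enough for testing, and all 14 differed in the direction of the probe set read. Of the 11 dimmer ones, 8 did and 3 did not.

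The 24 members too dim for testing included 10 Eph receptors: Epha1, Epha3, Epha4, Epha5, Epha6, Epha7, Epha8, Epha10, Ephb3 and Ephb6. The others were Efna2, Efna3, Efnb3, Ntn3, Ntn5, Ntng2, Plxnb3, Robo2, Robo3, Sema3d, Sema3e, Sema4f, Slit1 and Unc5d. Their signals lay between 4.28 and 242 on single arrays. In 5 of the 24 the groups did not overlap, beside 15.7% of all 6992 genes too dim for testing, and these values are descriptions only. Sema4f had 98.8, 96.8 and 126 in Pparg ldi/+ fat, against 44.4, 23.2 and 21.5 in WT fat. Plxnb3, a plexin that binds Sema5a, had 110, 148 and 121 in Pparg ldi/+ fat, against 47.1, 64.4 and 39.0 in WT fat. Both were thus higher in Pparg ldi/+ fat, and the other 3 were lower. Sema3e, the ligand of plexin D1, had 64.8, 80.2 and 84.1 in Pparg ldi/+ fat, against 151, 113 and 114 in WT fat. Ephb6, an Eph receptor without kinase activity, had 97.2, 37.9 and 102 in Pparg ldi/+ fat, against 158, 191 and 242 in WT fat. Efna2 had 19.7, 112 and 123 in Pparg ldi/+ fat, against 177, 167 and 218 in WT fat.

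Genes that act with these families, such as further receptors, adaptors, guanine nucleotide exchange factors and actin regulators, went both ways. Of 54 tested from a list of 69, 11 rose and 13 fell, and 30 did not pass, with a median log2 difference of -0.04. The falls numbered 8 without Pparg ldi/+ array 3, and with array 3 alone 7 of 55 rose and 4 fell. Over all genes 16.3% rose and 16.4% fell.

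The falls were led by Ablim3, an actin-binding LIM protein, which had 374, 330 and 374 in Pparg ldi/+ fat, against 1149, 956 and 1176 in WT fat (log2 -1.52, limma adjusted p = 3.25e-05). Neo1 encodes neogenin, a receptor of netrins and of repulsive guidance molecules. It had 323, 311 and 333 in Pparg ldi/+ fat, against 591, 714 and 996 in WT fat (log2 -1.14, limma adjusted p = 0.00136). Its ligand gene Rgma fell as well, by 0.93 on the log2 scale. Averaging the probe sets of Neo1 ended its call (-0.50). Tiam1, an exchange factor for Rac, and Srgap1, a GTPase-activating protein that binds Robo receptors, fell by 0.65 and 0.79 on the log2 scale. The Srgap1 call ended without Pparg ldi/+ array 1 (-0.56) or array 3 (-0.81) without WT array 1 (-0.77) or array 2 (-0.73), and with dim genes kept in the test (limma adjusted p = 0.0659).

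The rises were led by Evl, an actin regulator of the Ena/VASP family, which had 2203, 2149 and 2224 in Pparg ldi/+ fat, against 845, 771 and 570.2 in WT fat (log2 1.57, limma adjusted p = 5.98e-05). Vav3, an exchange factor found in immune cells, rose 2.08-fold. The adaptor gene Nck2 rose to 1395, 1298 and 1303 in Pparg ldi/+ fat, against 645, 631 and 674 in WT fat. The kinase gene Fes, of myeloid and other cells, rose 1.98-fold. Srgap2, related to Srgap1, rose 1.53-fold where Srgap1 fell. With array 3 alone Tiam1 (-0.61), Srgap2 (0.55) and Srgap1 (-0.75) no longer passed. The groups did not overlap in any of these 10 genes, which the test on the same arrays had picked.

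**Figure D5:**
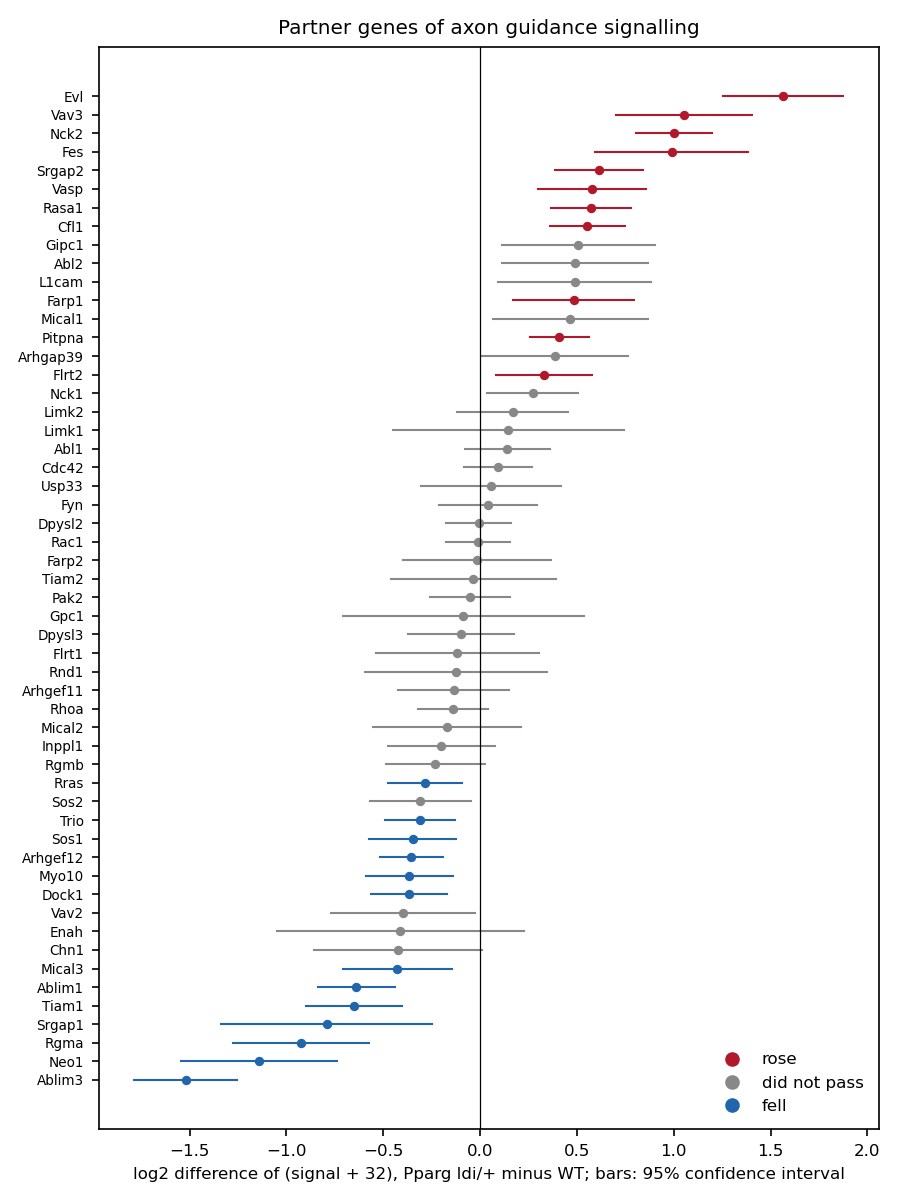
Log2 difference of (signal + 32), Pparg ldi/+ minus WT, with its 95% confidence interval, for the 54 partner genes tested, ordered by size and coloured by call. Rises run from Evl at 1.57 down to Flrt2 at 0.33, falls run from Ablim3 at -1.52 to Rras at -0.29, and 30 genes between them did not pass.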

How the data were processed

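The authors deposited 1 linear intensity for each probe set of an array. MAS5 is named by the submitters' processing notes of 2 of the 6 samples; the sources used here give neither its version nor its target. Each array was scaled here to a mean of 500 after trimming 2% at each end, and log2 was taken after adding 32. Of 45101 probe sets, 34945 had a single symbol, updated for 34741 through a RefSeq table of GRCm38.p6. A gene was read by its brightest probe set over all 6 arrays, leaving out x_at sets where another existed. Genes with a mean log2 value below 7.46, a signal of 145, were not tested. The comparison used limma 3.58.1, run in R 4.3.3 (intensity trend, two-sided, Benjamini-Hochberg over 11201 genes). Exact permutation of 3 against 3 arrays cannot go below p = 0.1. The method was tested on simulated data.

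The members, the partner list and the marker lists were chosen with earlier results of these data known. Named with values are Robo1, the other Robo and Slit genes, all members called, and, of the partners that passed, the 5 with the most positive and the 5 with the most negative difference. Other members were named for completeness, some after their values were seen. Alternatives changed the offset, scaling, filter, variance model, probe set, replicate block and arrays used.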

Additional observations from a re-analysis of the deposited data

How the results depend on the processing

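The main counts were 5 members that rose, 13 that fell, 11 partners that rose and 13 that fell. When the probe sets of each gene were averaged, 3 of 33 members tested rose and 12 fell. Of 46 partners tested then, 10 rose and 6 fell, where 1527 of 10099 genes rose and 1553 fell. Plxnc1, Sema4d and Sema6a were not tested in that setting, as their averages were too dim. In the brighter 30% of probe sets 8 of 21 members tested fell, where 1582 of 7867 genes did, against 13 of 44 members and 1837 of 11201 genes in the main setting. In unscaled values 6 of 53 partners fell, where 1331 of 11202 genes did. With no intensity trend 16 of 44 members fell and 4 rose, where 1732 of 11201 genes fell and 1695 rose. With Pparg ldi/+ array 3 alone, 2 members rose and 5 fell, 7 partners rose and 4 fell, and 733 of all genes rose and 878 fell; fewer samples enter that fit. Leaving out single arrays gave 2 to 5 members that rose, 10 to 14 that fell, 9 to 13 partners that rose, 8 to 12 that fell, 1294 to 1704 genes that rose and 1442 to 1679 that fell. With the replicate number as a block, 4 members rose and 12 fell, and 1568 genes rose and 1598 fell; Sema4a and Sema6a lost their call. The deviations of same-numbered arrays from their group means correlated at -0.127, -0.0857 and -0.0945. Whether the numbers pair the mice is not stated, and with 3 arrays in each group these correlations cannot settle it. Efnb1, Plxnb2, Robo4, Sema3g, Sema4c and Slit3 kept their call in 18 of 18 alternatives and Sema4d in 17 of 17. All of these but Efnb1 and Sema4d have 1 probe set, so averaging left their differences as they were. Sign changes were seen in members that had not passed, and the cause was not tested. With array 3 alone Ntng1 was at -0.18, Plxna1 at 0.12, Sema3c at 0.16, Sema5b at 0.26 and Sema6b at -0.19. In unscaled values Plxna1 was at 0.018 and Sema5b at 0.033. Leaving out single arrays gave -0.11 to 0.061 for Plxna1, -0.11 to 0.16 for Sema3a, -0.23 to 0.061 for Sema3c, -0.14 to 0.12 for Sema5b, -0.80 to 0.39 for Unc5a and -0.17 to 0.26 for Unc5c. The number of arrays, 3 in each group, limits the precision, and members near background could not be tested.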
